A study of Mus musculus with 18 samples.

Results

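The dual-specificity MAP kinase phosphatases are enzymes that remove phosphate from both the threonine and the tyrosine of activated MAP kinases. The set examined here holds 10 mouse genes, *Dusp1*, *Dusp2*, *Dusp4*, *Dusp5*, *Dusp6*, *Dusp7*, *Dusp8*, *Dusp10*, *Dusp14* and *Dusp16*, chosen by gene symbol, out of 55029 Ensembl genes listed in one layout of count files and 54232 in the other. Each symbol matched 1 Ensembl gene in both layouts. As background, MAP kinases such as ERK, JNK and p38 carry signals from receptors to the nucleus, and many of the phosphatases that switch them off are themselves transcribed in response to the same signals, which makes them feedback inhibitors. In myeloid cells *Dusp1* is known as a brake on p38 and JNK after microbial stimulation.

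RNA was sequenced from eosinophils of the peritoneal cavity of C57BL/6 mice carrying an *Il5* transgene, purified by negative selection against Thy1.2 and B220. Eosinophils were left unstimulated (6 libraries) or were kept for 18 h with heat inactivated *E. coli*, IFN-γ at 50 ng/ml, the pair together, or IL-4 at 100 ng/ml (3 libraries each). The *E. coli* and IFN-γ libraries share a file layout with unstimulated libraries a, b and c, and the IL-4 libraries share another with unstimulated libraries d, e and f, so each stimulus was set against the unstimulated libraries of its own layout. The time that unstimulated eosinophils were kept is not given in the sources used here.

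Eosinophils of these mice develop under transgenic IL-5, which limits them as a model of eosinophils in other mice. The replicates are described as biological, but whether they came from separate animals or cultures is not stated, so p-values measure the spread between these libraries. Summed over genes, libraries of the former layout had 1523808 to 2734041 counts and those of the latter 3625036 to 6482289. The floor was set at 3 counts, which is 1.10 to 1.97 CPM (counts scaled to a common library total) in the former layout and 0.463 to 0.828 in the latter, and it covers counting error only. In the former layout the highest gene of each library stopped at 4089 counts or just above, while in the latter it had 87377 to 191131.

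The eosinophil label was checked on marker genes. Of 10 eosinophil markers 7 to 9 were above the floor in each library of the former layout and 10 in each of the latter. Their summed normalized CPM was 3110 to 5660 and 5180 to 6150, led by *Alox15* or *Ccr3* in every library. The peroxidase gene *Epx*, a defining granule gene, was at 0 in 5 libraries, all of them stimulated. The 8 T cell markers summed to 1.81 to 9.25 CPM per library, and the 4 NK cell markers to at most 0.947 CPM. The 6 mast cell markers summed to 6.60 to 71.8 CPM, the 4 of dendritic cells to 3.65 to 16.5 and the 4 of mesothelium to at most 2.07. Macrophage markers, of which 10 were listed, summed to 632 to 1670 CPM in the former layout and 1760 to 2810 in the latter, led by *Csf1r*, *Marco*, *C1qb* or *C1qc*.

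The sums of some lists differed between groups and were not tested as sums. Mean summed macrophage marker CPM was 1030 ± 63.7 (SD, n = 3) in unstimulated libraries a to c, 774 ± 198 after *E. coli*, 1500 ± 51.3 after IFN-γ and 1480 ± 180 after both, and it was 2500 ± 305 in unstimulated libraries d to f (2200, 2500 and 2810) and 1880 ± 146 with IL-4. Of 9 macrophage markers tested, 0 were higher and 4 lower after *E. coli*, 4 and 0 after IFN-γ, and 3 and 1 after both. Of 10 tested with IL-4, 0 were higher and 5 lower (1 and 5 without library e). Of all genes, 13.5% and 16.7%, 15.6% and 16.0%, 23.9% and 25.2%, and 5.97% and 4.35% were higher and lower in these comparisons. The 7 B cell markers, led by *Ighm*, summed to 179 ± 53.5 CPM in libraries a to c, 55.2 ± 19.9 after *E. coli*, 74.4 ± 21.8 after IFN-γ and 131 ± 6.03 after both. In the IL-4 layout they summed to 30.9 ± 11.2 CPM unstimulated (24.9, 23.9 and 43.8 in d, e and f) and 66.2 ± 6.53 with IL-4. Of 5 B cell markers tested in the former layout, 5 were lower after *E. coli*, 4 after IFN-γ and 0 after both, and 0 were higher. With IL-4, 3 of 4 were higher and 0 lower, also without library e. The 7 neutrophil markers summed to 40.2 ± 5.44 CPM in libraries a to c, 166 ± 41.6 after *E. coli*, 72.3 ± 6.18 after IFN-γ and 87.5 ± 20.3 after both, and to 21.1 ± 1.40 (21.0, 19.8 and 22.6 in d, e and f) against 48.5 ± 12.1 with IL-4. Of 3 neutrophil markers tested in the former layout, 2 were higher and 0 lower after *E. coli*, and 2 and 1 after IFN-γ and after both. With IL-4, 1 of 4 was higher and 0 lower, also without library e.

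Mast cell markers summed to 8.39 ± 1.14 CPM in libraries a to c (SD, n = 3), 17.0 ± 15.1 after *E. coli*, 19.1 ± 9.46 after IFN-γ and 58.1 ± 19.1 after both, and to 7.5 ± 0.996 against 15.3 ± 6.59 with IL-4. Of 2 mast cell markers tested, 0 were higher after *E. coli*, 1 after IFN-γ, 2 after both and 0 with IL-4, and 0 were lower. Dendritic cell markers summed to 5.81 ± 1.86 CPM in libraries d to f (5.25, 4.29 and 7.89) and 12.2 ± 4.57 with IL-4. Of 2 dendritic cell markers tested with IL-4, 1 was higher, and 0 without library e. The eosinophil sum itself was 4740 ± 795 CPM in libraries a to c, 3800 ± 263 after *E. coli*, 4300 ± 387 after IFN-γ and 3320 ± 200 after both. The highest counts of that layout stopped at 4089 or just above, and the effect of this on the eosinophil sum was not tested. Of the 7 eosinophil markers tested there, 2, 5 and 5 were lower after these stimuli, against 16.7%, 16.0% and 25.2% of all genes, and 1, 0 and 1 were higher. Libraries of the IL-4 layout had 5620 ± 462 (5300, 6150 and 5410 in d, e and f) and 5300 ± 116 with IL-4. Of 10 markers tested there 4 were higher and 1 lower with IL-4, and 5 and 1 without library e, against 5.97% and 4.35% of all genes (7.45% and 5.34% without it). The part of these cells in the values below was not tested, and in bulk RNA fewer cells of a type and less RNA per cell cannot be told apart.

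Unstimulated library e stood apart. Its chi-square per gene was 23.7 against library d and 22.0 against library f, while d and f differed by 7.86. IL-4 results of the fit reported are given below with and without it.

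Of the 10 genes, 6 passed the filter on low counts in each layout: *Dusp1*, *Dusp2*, *Dusp5*, *Dusp6*, *Dusp7* and *Dusp16*. *Dusp4*, *Dusp8*, *Dusp10* and *Dusp14* did not and were not tested. A gene counted as higher or lower when its adjusted p was under 0.05, from the quasi-likelihood test of edgeR and the Benjamini-Hochberg method across the genes tested in that layout. In GENCODE M21 (GRCm38) *Dusp1* lies at chr17:26505590-26562128, *Dusp5* at chr19:53529109-53542431, *Dusp6* at chr10:99263231-99267489, *Dusp7* at chr9:106368632-106375724 and *Dusp16* at chr6:134715468-134792625. With *E. coli*, 2 of the 6 tested genes were higher and 2 were lower, against 13.5% and 16.7% of all 9883 genes tested. With IFN-γ, 3 were higher and 2 lower, against 15.6% and 16.0% of all genes. With IFN-γ and *E. coli*, 3 were higher and 2 lower, against 23.9% and 25.2%. With IL-4, 0 were higher and 1 was lower, against 5.97% and 4.35% of 10556 genes. Without library e 1 was higher and 1 lower, against 7.45% and 5.34% of 10893 genes. Genes called with IL-4 went from 1089 to 483, 495 and 515 on leaving out IL-4 replicate 1, 2 or 3, and no member was called then. The 3 comparisons of the former layout share unstimulated libraries a to c. The median log2 fold change over the 6 tested genes was 0.42, -0.11, 1.03 and -0.28 in the order given, beside -0.02, -0.03, -0.04 and 0.00 over all genes tested, and with IL-4 it was -0.29 without library e.

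**Figure D1:**
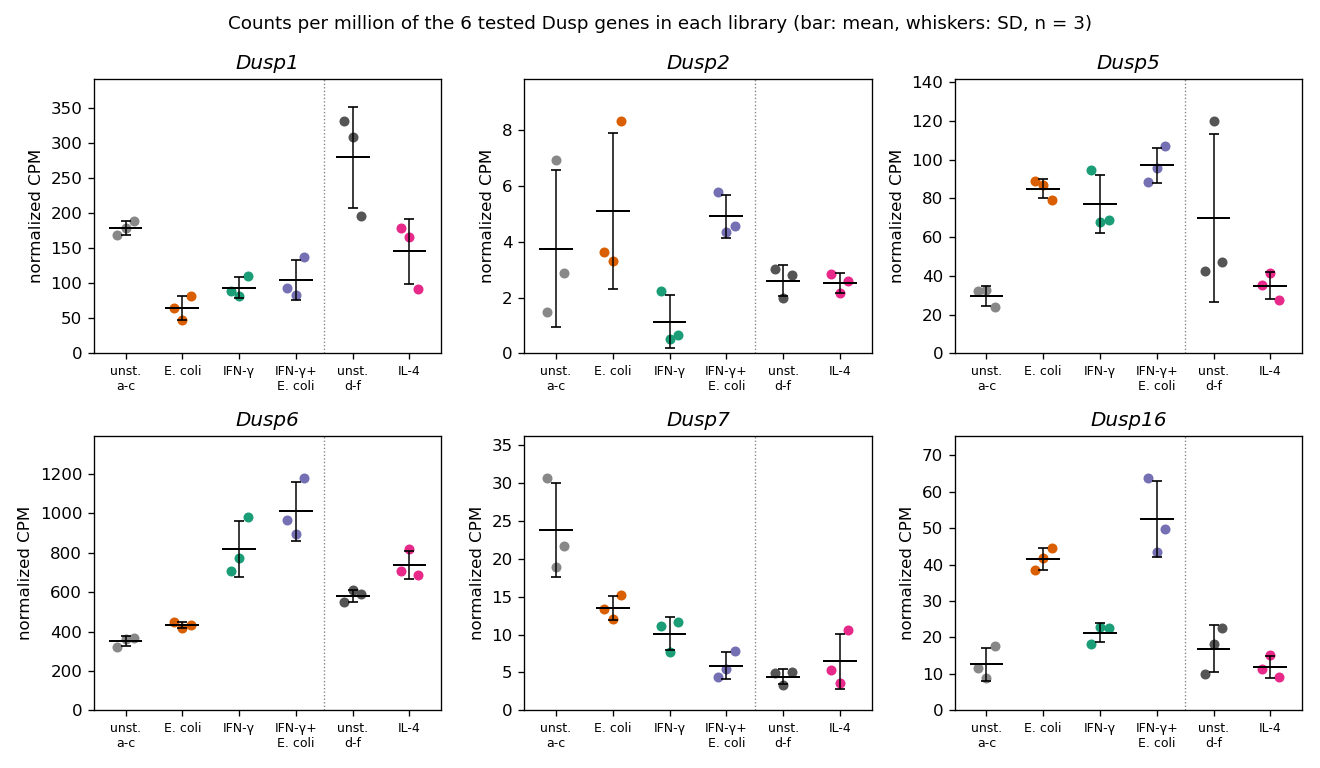
Normalized CPM (vertical axis, linear, from 0) of the 6 tested genes by group (horizontal axis). Points are libraries, bars are means and whiskers are SDs (n = 3), and the dotted line parts the separately normalized file layouts. *Dusp1* lay lower in the stimulated libraries of both layouts, and *Dusp5* of unstimulated library e, at 120 CPM, stands far above libraries d and f.

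*Dusp1*, a nuclear phosphatase of p38 and JNK that is induced early after many stimuli, had 169, 178 and 189 CPM in unstimulated libraries a, b and c. It had 64.8, 46.8 and 81.9 CPM with *E. coli*, 88.9, 81.4 and 110 with IFN-γ, and 92.9, 83.2 and 137 with both. Every stimulated library of this layout was below every unstimulated one. The log2 fold change was -1.49 (SE 0.18, adjusted p = 5.98e-06) with *E. coli*, -0.94 (SE 0.18, adjusted p = 0.000624) with IFN-γ and -0.78 (SE 0.18, adjusted p = 0.00159) with both. In the IL-4 layout *Dusp1* had 331, 308 and 196 CPM in libraries d, e and f and 178, 166 and 92.2 with IL-4. These groups did not overlap, and the log2 fold change was -0.93 (SE 0.25, adjusted p = 0.0419), or -0.85 with an adjusted p of 0.0257 without library e. The call was lost without unstimulated library d (-0.80, adjusted p = 0.0837) and without IL-4 replicate 1, 2 or 3 (-1.09, -1.05 and -0.71, adjusted p = 0.0776, 0.0953 and 0.115). Against all 6 unstimulated libraries as 1 group it was lost too (-0.49, adjusted p = 0.324), while the values with IFN-γ and with both were -1.52 and -1.34 (adjusted p = 0.00657 and 0.00696). *Dusp1* shares exon positions with *Ergic1* on the opposite strand, and the counting is not stated to use strand.

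*Dusp5*, a nuclear phosphatase selective for ERK, had 32.2, 32.7 and 23.8 CPM in libraries a, b and c. It had 88.7, 86.7 and 79.4 CPM with *E. coli*, 94.5, 67.7 and 68.8 with IFN-γ, and 88.5, 95.8 and 107 with both. All 9 stimulated libraries were above all 3 unstimulated ones. It rose by a log2 fold change of 1.53 (SE 0.16, adjusted p = 7.25e-07) with *E. coli*, 1.39 (SE 0.16, adjusted p = 2.86e-06) with IFN-γ and 1.72 (SE 0.16, adjusted p = 6.64e-08) with both. Against all 6 unstimulated libraries as 1 group, which mixes the layouts, the calls were lost (0.47, 0.35 and 0.71, adjusted p = 0.447, 0.591 and 0.205). In the IL-4 layout it had 42.6, 120 and 47.4 CPM in libraries d, e and f and 35.4, 41.5 and 27.6 with IL-4. The IL-4 libraries were below the unstimulated ones, and the high value is that of library e. The log2 fold change with IL-4 was -1.01 (SE 0.35, adjusted p = 0.104), and without library e it was -0.36 (adjusted p = 0.222). It was called without library d (-1.26, adjusted p = 0.0354), by DESeq2's Wald test (-1.02, adjusted p = 0.0192), with no filter (-1.03, adjusted p = 7.6e-07) and in a fit of all 18 libraries with separate unstimulated groups (-1, adjusted p = 0.0108). All of these fits hold library e, and other fits that hold it, such as those without an IL-4 replicate, did not call it. *Dusp5* shares exon positions with *AC137853.2* on the opposite strand.

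*Dusp2*, another nuclear phosphatase, was near the floor. In the former layout libraries had 1 to 17 counts, or 0.509 to 8.34 CPM, and in the IL-4 layout 10 to 15 counts, or 1.98 to 3.04 CPM. None of the 4 comparisons with unstimulated libraries called it (adjusted p = 0.473, 0.124, 0.453 and 0.968 in the order *E. coli*, IFN-γ, both, IL-4). With IL-4 its log2 fold change was -0.04, and -0.22 without library e (adjusted p = 0.846). *Dusp4*, the remaining nuclear member, had 0 to 5 counts in the former layout and 0 to 11 in the latter, with more than 3 counts in 1 of 12 and 3 of 6 libraries.

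*Dusp6*, a cytoplasmic phosphatase selective for ERK, had 322, 360 and 369 CPM in libraries a, b and c and 446, 420 and 433 with *E. coli*. It had 705, 774 and 980 CPM with IFN-γ and 966, 894 and 1180 with both. The *E. coli* libraries lay just above the unstimulated ones, and the libraries with IFN-γ lay above both groups. The log2 fold change was 1.23 (SE 0.13, adjusted p = 1.13e-06) with IFN-γ and 1.53 (SE 0.13, adjusted p = 2.69e-08) with both, while with *E. coli* it was 0.31 (SE 0.13, adjusted p = 0.0889). The *E. coli* value was called in a fit of the 6 compared libraries alone (0.33, adjusted p = 0.0264) and with no filter (0.35, adjusted p = 0.041). With all 6 unstimulated libraries as 1 group, the *E. coli* value turned to -0.35 (adjusted p = 0.39). In that fit the IFN-γ call was lost (0.58, adjusted p = 0.14) and the value with both was 0.91 (adjusted p = 0.0155). Counts of *Dusp6* reached 1808 in this layout. If counts there are distinct molecular identifiers of 6 bases, collisions lower high counts, and a correction for them, chosen after seeing the data, gave 0.37, 1.39 and 1.75 for *E. coli*, IFN-γ and both. In the IL-4 layout *Dusp6* had 548, 609 and 588 CPM unstimulated and 708, 818 and 686 with IL-4. The groups did not overlap, with a log2 fold change of 0.34 (SE 0.11, adjusted p = 0.0896), and 0.37 with an adjusted p of 0.0244 without library e.

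*Dusp7*, the other cytoplasmic ERK phosphatase of the set, had 30.7, 18.9 and 21.7 CPM in libraries a, b and c. It had 13.4, 12 and 15.2 CPM with *E. coli*, 11.1, 7.64 and 11.7 with IFN-γ, and 4.35, 5.44 and 7.86 with both. Each stimulated group was below the unstimulated one without overlap. It fell by 0.85 (SE 0.23, adjusted p = 0.00887) on the log2 scale with *E. coli*, by 1.27 (SE 0.26, adjusted p = 0.000941) with IFN-γ and by 2.03 (SE 0.29, adjusted p = 1.36e-05) with both. The call with *E. coli* was lost without unstimulated library a (-0.61, adjusted p = 0.0958) and without *E. coli* replicate 2 (-0.75, adjusted p = 0.0517). It was also lost in the fit of 18 libraries with separate unstimulated groups (-0.81, adjusted p = 0.0546). With the unstimulated libraries as 1 group, *Dusp7* was called with none of the 3 stimuli (-0.09, -0.48 and -1.23, adjusted p = 0.916, 0.548 and 0.114). In the IL-4 layout *Dusp7* had 4.98, 3.3 and 5.08 CPM unstimulated and 5.3, 3.64 and 10.6 with IL-4, and these groups overlapped. The log2 fold change was 0.52 (SE 0.43, adjusted p = 0.486), and 0.32 without library e (adjusted p = 0.721). With the unstimulated libraries as 1 group the IL-4 value turned to -0.75 (adjusted p = 0.346).

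*Dusp16*, which acts on JNK and p38, had 11.5, 8.81 and 17.6 CPM in libraries a, b and c. It had 38.5, 41.8 and 44.6 CPM with *E. coli*, 18.3, 22.9 and 22.7 with IFN-γ, and 63.8, 43.5 and 49.8 with both. The libraries with *E. coli*, alone or with IFN-γ, were the high ones. The log2 fold change was 1.68 (SE 0.21, adjusted p = 7.65e-06) with *E. coli* and 2.00 (SE 0.22, adjusted p = 4.06e-07) with both. With IFN-γ it was 0.71 (SE 0.24, adjusted p = 0.0302), a call that was lost without unstimulated library a or b (0.62 and 0.58, adjusted p = 0.123 and 0.0856) and without IFN-γ replicate 2 or 3 (0.68 in each, adjusted p = 0.0818 and 0.0803). It was lost as well in the fits of 18 libraries, with separate unstimulated groups (0.76, adjusted p = 0.0683) or 1 group (0.29, adjusted p = 0.534). In the IL-4 layout it had 9.96, 18.1 and 22.7 CPM unstimulated and 11.4, 15.2 and 9.03 with IL-4, which overlapped. The log2 fold change was -0.52 (SE 0.31, adjusted p = 0.325), and -0.48 without library e (adjusted p = 0.378).

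*Dusp8* and *Dusp10*, which also act on JNK and p38, and *Dusp14*, a small atypical member, were low throughout. *Dusp8* had 0 to 6 counts in the former layout and 0 to 7 in the latter. *Dusp10* had 0 to 9 and 4 to 10 counts, and a fit with no filter on low counts put it at 2.07 on a log2 scale (adjusted p = 0.0159) with IFN-γ and *E. coli*. *Dusp14* had 0 to 4 and 0 to 6 counts, and was at 0 in all 3 IFN-γ libraries, where the floor is at most 1.81 CPM. Fits with no filter did not call *Dusp4*, *Dusp8* or *Dusp14* in any comparison. In these fits *Dusp8* was at 2.07 with IFN-γ and *E. coli* (adjusted p = 0.0605). *Dusp14* was at 4.38 between *E. coli* and IFN-γ (adjusted p = 0.0658), a fitted value against a group at 0 counts. *Dusp8* shares exon positions with *Gm32786* on the opposite strand.

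**Figure D2:**
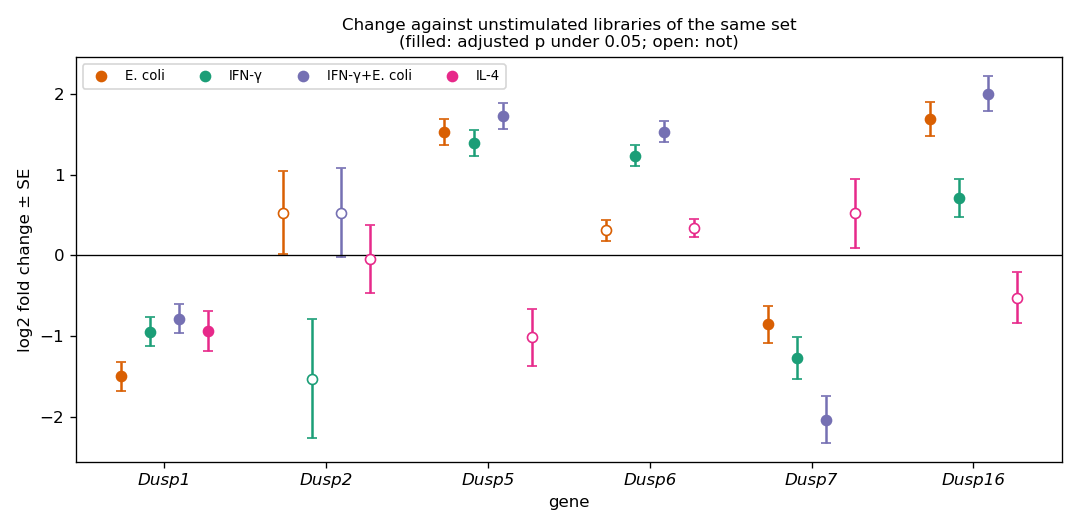
Log2 fold change ± SE (vertical axis) of the 6 tested genes (horizontal axis) with each stimulus against the unstimulated libraries of its layout (n = 3 libraries a group). Filled points have an adjusted p under 0.05. *Dusp5* and *Dusp6* lie above 0 and *Dusp7* below 0 with IFN-γ and *E. coli*, at 1.72, 1.53 and -2.03.

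Comparing the stimuli with each other asks whether *E. coli* adds to IFN-γ and the reverse. Adding *E. coli* to IFN-γ changed 1 of the 6 tested genes, against 12.2% of all genes. Genes called went from 1210 to 739 without IFN-γ replicate 1 (7.24%) and to 773 without replicate 2 of both stimuli (7.59%). The member called was *Dusp16*, with a log2 fold change of 1.28 (SE 0.21, adjusted p = 0.000352). *Dusp6* (0.31, SE 0.13, adjusted p = 0.14) was called without IFN-γ replicate 3 (0.45, adjusted p = 0.0388). It was also called with the replicate number as a block (0.3, adjusted p = 0.0405), a number not known to pair libraries. *Dusp2* (2.05, SE 0.72, adjusted p = 0.0712) was called with no filter (2.02, adjusted p = 0.0344). Adding IFN-γ to *E. coli* changed 3, against 32.8% of all genes. *Dusp6* was higher by 1.23 (SE 0.13, adjusted p = 7.67e-07) and *Dusp1* by 0.71 (SE 0.19, adjusted p = 0.00872) on the log2 scale, and *Dusp7* fell by 1.17 (SE 0.31, adjusted p = 0.00728). The *Dusp1* call was lost without *E. coli* replicate 2 (0.51, adjusted p = 0.0648) and without replicate 3 of both stimuli (0.46, adjusted p = 0.0652).

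Between *E. coli* and IFN-γ directly, 4 of the 6 genes differed, against 25.6% of all genes. *Dusp16* (0.96, SE 0.20, adjusted p = 0.00146) and *Dusp2* (2.05, SE 0.67, adjusted p = 0.0305) were higher with *E. coli* on the log2 scale, and *Dusp6* (-0.92, SE 0.13, adjusted p = 2.89e-05) and *Dusp1* (-0.55, SE 0.19, adjusted p = 0.0443) were lower. The *Dusp1* libraries of these groups overlapped. Its call was lost without *E. coli* replicate 1 or 2 (-0.56 and -0.35, adjusted p = 0.0911 and 0.241), without IFN-γ replicate 1 or 3 (-0.58 and -0.42, adjusted p = 0.0741 and 0.197) and in a fit of the 9 stimulated libraries (-0.54, adjusted p = 0.0699). The *Dusp2* call, on 1 to 17 counts per library, was lost without *E. coli* replicate 3 (1.57, adjusted p = 0.128) and without IFN-γ replicate 2 or 3 (1.66 and 1.83, adjusted p = 0.133 and 0.106). *Dusp2* did not pass the filter in the fit of the 9 stimulated libraries, nor in the former layout with at least 10 counts required in every library of 1 group, and was not tested there.

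The interaction tests whether the joint change departs from the sum of the log2 changes with each stimulus. It was called for 2 of the 6 tested genes, against 4.62% of all genes. That background went from 457 genes to 266 without unstimulated library a, 286 and 270 without *E. coli* replicate 1 and 2, and 294 without replicate 2 of both stimuli, and 2 members were called in each of these fits. For *Dusp1* it was 1.65 (SE 0.27, adjusted p = 0.00122), so that *Dusp1* fell less with both stimuli than that sum. For *Dusp5* it was -1.20 (SE 0.22, adjusted p = 0.00324), as its rise with both stimuli was smaller than the sum of the rises with each. The other 4 were not called: 1.52 (SE 0.90, adjusted p = 0.431) for *Dusp2*, 0.00 (SE 0.19) for *Dusp6*, 0.09 (SE 0.44) for *Dusp7* and -0.39 (SE 0.30) for *Dusp16*.

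A fit of all 18 libraries, in which each layout kept its own unstimulated group, set the IL-4 response against the joint response to IFN-γ and *E. coli*. Of the 6 tested genes 4 differed, against 39.2% of 10671 genes. *Dusp5* (-2.79, SE 0.40, adjusted p = 1.06e-05), *Dusp16* (-2.58, SE 0.38, adjusted p = 1.28e-05) and *Dusp6* (-1.25, SE 0.18, adjusted p = 1.15e-05) had a lower log2 response to IL-4, and *Dusp7* a higher one (2.47, SE 0.50, adjusted p = 0.000489). Without library e the values were -2.14, -2.54, -1.22 and 2.26, with adjusted p from 1.71e-07 to 0.00124, against 37.6% of 10927 genes called. Stimulus and file layout cannot be told apart in this comparison.

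Other genes of the pathway were taken from lists. Their counts stand against the share of all genes tested that was called, which was 30.2%, 31.6%, 49.0% and 10.3% for *E. coli*, IFN-γ, both and IL-4, or 12.8% for IL-4 without library e. Of 14 MAP kinases 8 were tested in the former layout, and 3 were higher and 1 lower with *E. coli*, 2 and 1 with IFN-γ, and 3 and 1 with both, with median log2 fold changes of 0.20, 0.17 and 0.01. With both stimuli 4 of 8 called is near the 49.0% of all genes, and with IFN-γ 3 of 8 is near 31.6%. *Mapk14*, which encodes p38α, fell by 1.66 (SE 0.17, adjusted p = 1.89e-07) on the log2 scale with both stimuli, from 154 ± 11.7 to 49.1 ± 15.2 CPM (SD, n = 3). *Mapk6* rose by 1.11 (SE 0.18, adjusted p = 4.02e-05). With IL-4 none of 9 tested MAP kinases was called by edgeR, with or without library e.

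A list of 30 genes holds MAP2 and MAP3 kinases and the adaptors *Tab1*, *Tab2* and *Tab3*, which bind the kinase TAK1, and 26 were tested. With *E. coli* 2 were higher and 4 lower, with IFN-γ 6 and 4, with both 9 and 5, and with IL-4 1 and 0, with medians of -0.10, -0.04, -0.17 and 0.05. Adaptors make up 1 of those higher with IFN-γ and 2 of those higher with both. With both stimuli 14 of 26 called is near the 49.0% of all genes. Without library e IL-4 again gave 1 and 0, with a median of 0.08. *Map2k1*, which encodes the ERK kinase MEK1, rose by 1.05 (SE 0.12, adjusted p = 2.54e-06) with IFN-γ and by 1.67 (SE 0.12, adjusted p = 2.39e-09) with both. *Map3k6* fell by 2.66 and 3.71 in these comparisons (SE 0.35 and 0.42, adjusted p = 9.5e-06 and 6.73e-07). It had 71, 41 and 41 counts in unstimulated libraries a to c, 8, 8 and 3 with IFN-γ, and 3, 1 and 4 with both. The counts with both lie at or near the floor of 3, so the size of that fall is uncertain. *Map3k15* fell by 1.11 with *E. coli* (SE 0.18, adjusted p = 8.29e-05) and rose by 1.33 with IFN-γ (SE 0.15, adjusted p = 1.36e-06). Its detection differed between the layouts, with a mean of 26.3 CPM in unstimulated libraries a to c and 0.11 in d to f (0, 2 and 0 counts). The cause of that difference was not tested. *Map3k1* rose by 1.29 with IFN-γ (SE 0.17, adjusted p = 1.02e-05).

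Of 11 kinases activated by MAP kinases 9 were tested, and 2 were higher and 3 lower with *E. coli*, 2 and 1 with IFN-γ, 3 and 3 with both, and 2 and 0 with IL-4, also without library e. The medians were -0.19, 0.12, 0.13 and 0.04, and the IL-4 median was 0.13 without library e. With IFN-γ 3 of 9 called is near the 31.6% of all genes. *Mapkapk2*, a target of p38, rose by 1.06 (SE 0.11, adjusted p = 4.18e-07) with both stimuli. Among 17 other inhibitors of the pathway 8 were tested in the former layout, and 3 were higher in the *E. coli* comparison, 2 in that of IFN-γ and 5 in that of both, where 1 was lower. *Spred1*, an inhibitor of Ras signalling, rose by 1.23 with *E. coli* and 1.63 with both (SE 0.22 and 0.23, adjusted p = 0.00036 and 9.82e-06). *Nf1*, a Ras GTPase activator, rose by 1.54 and 2.24 (SE 0.28 and 0.27, adjusted p = 0.000305 and 1.83e-06). With IL-4 none of 10 tested inhibitors was called by edgeR, with or without library e. The medians were 0.10, 0.18, 0.40 and -0.06, and the IL-4 median was -0.05 without library e.

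Of 14 other *Dusp* genes 6 were tested in the former layout. With *E. coli* 0 were higher and 2 lower, and with IFN-γ and with both 1 was higher and 1 lower. *Dusp23* fell by 1.5 with *E. coli* and 1.25 with both (SE 0.33 and 0.36, adjusted p = 0.0019 and 0.0068), and *Dusp28* fell by 1.16 with *E. coli* (SE 0.32, adjusted p = 0.0095). Against the shares of all genes (30.2%, 31.6% and 49.0%) these are 2 of 6 each, with medians of -0.25, -0.22 and -0.18. With IL-4 none of 7 was called, and without library e 1 was lower.

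Of 12 transcripts used as a readout of ERK output in other cells, with the *Dusp* genes left out, 6 were tested. In each of the 3 comparisons of the former layout 4 were higher and 1 lower, against 30.2%, 31.6% and 49.0% of all genes, and with IL-4 1 was higher, with or without library e. Their median log2 fold change was 1.83, 0.82, 2.03 and 0.47, beside -0.02, -0.03, -0.04 and 0.00 over all genes. Without library e the IL-4 median was 0.46. *Fosl1* had 2.14 ± 1.34 CPM in unstimulated libraries a to c, 14.6 ± 0.759 after *E. coli*, 13.4 ± 4.68 after IFN-γ and 67.9 ± 2.50 after both (SD, n = 3). It rose by 2.68, 2.59 and 4.89 (SE 0.34, 0.36 and 0.28, adjusted p = 7.93e-06, 1.94e-05 and 9.17e-11). *Phlda1* rose by 3.42 with *E. coli* and 3.43 with both (SE 0.21 in each, adjusted p = 5.91e-10 and 1.76e-10), and *Ier3* by 1.85 and 2.63 (SE 0.23 in each, adjusted p = 5.07e-06 and 2.56e-08). *Ccnd1* rose by 1.95 with IFN-γ (SE 0.43, adjusted p = 0.00173). *Egr1*, an immediate early gene, fell by 1.67 with *E. coli* and 2.19 with IFN-γ (SE 0.15 and 0.16, adjusted p = 9.97e-08 and 6.52e-09).

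For each gene called in at least 2 of the 3 comparisons of the former layout, the 3 genes with the most similar log2 CPM over the 12 libraries were looked up among 7903 genes with a mean of at least 10 CPM. The 12 points are 4 groups of 3 libraries, so Pearson's r largely follows the group means and is a description. *Dusp1* was most like *Ncoa4* (r = 0.955), *Btg2* (0.951) and *Uri1* (0.935), and *Dusp5* like *Dnajb2* (0.969), *Fgd3* (0.953) and *Hmgn1* (0.951). *Dusp6* was most like *Pfkfb3* (0.992), *Mthfd1l* (0.991) and *Wsb2* (0.989), and *Dusp7* like *Ssbp3* (0.969), *Leprot* (0.966) and *Bscl2* (0.958). *Dusp16* was most like *Alcam* (0.978), *Arrdc4* (0.973) and *Ndel1* (0.971). By Spearman's rho, *Ncoa4* and *Btg2* were again the first genes for *Dusp1*, at 0.965 and 0.951, while the first genes were *Nptn* for *Dusp5* (0.937), *Ywhag* for *Dusp6* (0.993), *Ppp1r21* for *Dusp7* (0.972) and *Cxcl2* for *Dusp16* (0.979).

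Promoter windows of 300 bases, from 250 before to 50 after the start of the gene, were taken from RefSeq (GRCm38.p6) for 9 of the 10 genes; *Dusp4* was not matched. The starts are those of RefSeq and can differ from GENCODE's: the windows of *Dusp1*, *Dusp8*, *Dusp10* and *Dusp14* lie wholly inside the GENCODE bounds of these genes. Motifs were searched on both strands, and a match is a description of letters. The cyclic AMP response element TGACGTCA was in the windows of *Dusp1* and *Dusp8*, and in 1.79% of all 32851 windows. The CArG box, a site that serum response factor binds, was in that of *Dusp5* and in 1.63% of all windows, and the gamma-activated site TTCNNNGAA was in that of *Dusp14* and in 8.30%. The AP-1 motif TGANTCA, the STAT6 site with 4 bases between the half-sites and the kappaB site of Rel factors were in none of the 9 windows, and in 7.81%, 6.95% and 4.51% of all. The windows of *Dusp1* (chr17:26508423-26508722, minus strand) and *Dusp5* (chr19:53528895-53529194, plus strand) are shown because these genes moved in opposite directions with *E. coli*, IFN-γ and both, and both departed from additivity there. Capitals mark the cyclic AMP response element of *Dusp1* and a pair of adjoining CArG boxes of *Dusp5*.
Dusp1: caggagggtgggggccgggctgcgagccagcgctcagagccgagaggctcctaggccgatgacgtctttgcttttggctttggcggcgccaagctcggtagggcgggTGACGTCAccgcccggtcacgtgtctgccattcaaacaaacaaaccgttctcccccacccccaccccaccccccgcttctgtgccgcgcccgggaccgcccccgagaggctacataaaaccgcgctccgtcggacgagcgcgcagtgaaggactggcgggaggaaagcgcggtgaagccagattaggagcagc
Dusp5: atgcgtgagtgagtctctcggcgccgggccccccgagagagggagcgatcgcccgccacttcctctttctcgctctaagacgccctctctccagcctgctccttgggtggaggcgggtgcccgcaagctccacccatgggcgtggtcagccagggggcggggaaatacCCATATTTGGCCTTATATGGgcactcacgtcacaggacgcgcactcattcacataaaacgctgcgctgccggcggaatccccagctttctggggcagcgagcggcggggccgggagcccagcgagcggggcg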

How the data were processed

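Counts per Ensembl gene and library, not normalized, were those deposited by the authors. The submitters' processing notes name TopHat2 2.1.0, HTSeq 0.6.1, fastp 0.20.1 and STAR 2.7.2a, and the methods describe CEL-Seq2 libraries and GRCm38. Which aligner made which layout, the use of strand and the collapsing of molecular identifiers are not given in the sources used here. Counts assigned to no gene, 21.1% to 39.4% of the total in the 12-library layout, were left out. Software was edgeR 4.0.16, limma 3.58.1 and DESeq2 1.42.0 under R 4.3.3. After filterByExpr and TMM scaling, the quasi-likelihood test of edgeR was run, and p was adjusted by the Benjamini-Hochberg method over 9883 genes (12 libraries), 10556 (6 libraries) or 10671 (18 libraries). CPM values are TMM-normalized within a layout. Each SE is approximate, being the absolute log2 fold change over the square root of F.

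The members and gene lists were chosen with earlier results of these data known. Named genes are the 10 members and, of each list, genes called against unstimulated libraries with an absolute log2 fold change of at least 1 and no overlap between the groups, at most the 3 largest rises and 3 largest falls per list and comparison. Likeness used log2 CPM with a prior count of 2. Alternatives were DESeq2's size factors, DESeq2's Wald test, no filter, at least 10 counts in every library of 1 group, a change of at least 2-fold, leaving out each library, only the compared libraries, all 18 libraries with the unstimulated libraries as separate groups or as 1 group, and the replicate number as a term for stimulated libraries. The correction for identifier collisions and the counts of lists without library e were added after seeing the data.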

Additional observations from a re-analysis of the deposited data

Results flagged for a closer look

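Among the 6 unstimulated libraries, which come from both layouts, 1 library lay far from the others for 2 of the 10 genes. *Dusp5* had 112 CPM of the library total in library e, where the next highest unstimulated library had 47.6, and the gap was 0.752 of the range. *Dusp2* had 7.04 CPM in library b, from 11 counts, where the next had 3.16, with a gap of 0.720 of the range. Chance gives such a gap in about 1 of 20 groups.

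The effect of *E. coli* differed with and without IFN-γ for *Dusp1*, with an interaction of 1.65 on the log2 scale, and for *Dusp5*, with -1.20.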

How the results depend on the processing

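Under the alternatives 163 of 192 counts of calls stayed within a factor of 1.5, and 12 of 746 log2 fold changes of members changed sign, none of them called in the fit reported. The cause was not tested. Requiring a change of at least 2-fold left 1023 genes (10.4%) with *E. coli*, 1186 (12%) with IFN-γ, 2210 (22.4%) with both and 478 (4.53%) with IL-4. Between *E. coli* and IFN-γ it left 1027 (10.4%). It left 3 members with IFN-γ, 0 with IL-4 and 1 between *E. coli* and IFN-γ. The member left there was *Dusp2* (2.05), whose call rests on 1 to 17 counts per library and was lost on leaving out some libraries. *Dusp16* (0.96), *Dusp6* (-0.92) and *Dusp1* (-0.55) were under 2-fold. With all 6 unstimulated libraries as 1 group, 2, 1, 3 and 0 members were called with *E. coli*, IFN-γ, both and IL-4, beside 20.3%, 20.3%, 35.8% and 15.6% of genes (1662 with IL-4); *Dusp6* with *E. coli* became -0.35 and *Dusp7* with IL-4 became -0.75. With 18 libraries and separate unstimulated groups, IL-4 called 2 members and 1892 genes (17.7%). With no filter it called 2 members and 1634 genes (6.52% of 25056), and *E. coli* added to IFN-γ changed 2 members and 1238 genes (5.76% of 21505). DESeq2's Wald test called 2 members and 1257 genes (11.9%) with IL-4.

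Leaving out each library in turn gave 0 to 2 members and 483 to 1394 genes (4.46% to 12.8%) with IL-4, 1 to 2 members for *E. coli* added to IFN-γ (7.24% to 11% of genes) and 2 to 3 between *E. coli* and IFN-γ (19.6% to 22.3%). Signs changed for *Dusp2* with IL-4 (-0.22 to 0.07, with 0.03 and 0.06 between), for *Dusp1* between both stimuli and IFN-γ (-0.10 to 0.30), for the *Dusp7* interaction (-0.18 to 0.22, with -0.15, -0.12 and -0.01 between) and for *Dusp1* between the IL-4 and joint responses (-0.41 to 0.06, with 0.03 between).

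Nothing in the labels beyond the number ties stimulated libraries together. Deviations from group means correlated by 0.0515, 0.111 and 0.166 on average between same-numbered libraries and by -0.026, -0.054 and -0.0817 between others. Deviations within a group cancel out, so the averages between others follow from the same-numbered ones with opposite sign and add no evidence. Not every library was most like its own number, so the same-numbered averages are a hint from the data and not the design. With the replicate number as a block, 2 members were called for *E. coli* added to IFN-γ (*Dusp16*, and *Dusp6* at 0.30, adjusted p = 0.0405), 3 for IFN-γ added to *E. coli* and 3 between *E. coli* and IFN-γ; without it, the 9 stimulated libraries gave 1, 3 and 2. The block moved genes called from 1153, 3179 and 2475 (12.2%, 33.6% and 26.2%) to 1429, 3447 and 2750 (15.1%, 36.5% and 29.1%). Unstimulated letters could not be paired. The correction for identifier collisions, chosen after seeing the data, kept every count of calls it was run on within a factor of 1.5. Low counts limit what can be said of *Dusp2*, *Dusp4*, *Dusp8*, *Dusp10* and *Dusp14*.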
